A study of Homo sapiens with 4 samples.

Results

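The genes described here build the nuclear pore complex and carry cargo through it: nucleoporins, importins, exportins, the Ran cycle and the mRNA exporters. They were picked out by a pattern on the gene name, drawn up with earlier results of these data known, and 56 of the 60671 genes in the deposited table carried such a name. RNA was measured by poly(A)-selected RNA-seq in 4 libraries of H9, a long-established line of human embryonic stem cells, grown untreated in mTeSR medium. The 2 control libraries came from cells labelled as control. The mock cells of the study were clones given the empty editing vector, and the labels do not say whether these libraries came from them. The paper names mock control cells as the comparator in its RNA-seq of cells over-expressing CFIm25. A figure legend there writes that comparator as mock (m+OE), with m for mutant and OE for overexpression. The 2 other libraries, called KO+OE here, came from cells in which the CFIm25 gene had been edited by CRISPR/Cas9 and a 3Flag-tagged CFIm25 had been put back with a lentivirus. The edited cells that received the tagged protein were a single clone, with reduced CFIm25 carrying a small deletion near its N-terminus. Edited cells without the tagged protein were not analysed here. The question was thus whether the RNA of the transport machinery differed between control cells and edited cells given tagged CFIm25 by the lentivirus.

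The nuclear pore is a ring-shaped channel through both membranes of the nuclear envelope. A scaffold of Y-shaped complexes and an inner ring holds nucleoporins rich in phenylalanine and glycine (FG), which fill the channel and let only small molecules and receptor-bound cargo pass. Importins bind cargo in the cytoplasm and exportins bind it in the nucleus, and the small GTPase Ran, loaded with GTP in the nucleus, sets the direction of both. Messenger RNA leaves by another route, on the NXF1-NXT1 dimer. In embryonic stem cells importin alpha subtypes are known for carrying different transcription factors into the nucleus.

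The table named no unit, and its values were read as TPM, transcripts of a gene scaled to a fixed total. TPM corrects for transcript length and so lets levels of different genes be compared. All comparisons between genes given here rest on that reading. TPM keeps no read counts, so sequencing depth is unknown, and the only error available is the spread between the 2 libraries of a group. Nothing in the labels says that these were separate cultures, and the spread may be technical. NUDT21, which encodes CFIm25, stood at 161 and 152 TPM in control and 162 and 157 TPM in KO+OE, so its RNA did not tell the groups apart. The 6 pluripotency markers summed to between 3043 and 3074 TPM in every library, and the 4 mesoderm markers to at most 0.79 TPM. The 4 endoderm markers summed to 4.62 to 8.57 TPM, nearly all of it GATA6, with SOX17 listed at 0. The 4 ectoderm markers summed to 88.8 to 93.6 TPM, mostly NES, and 1 of the 2 tested had an unadjusted p under 0.05 from limma but did not pass after adjustment. OTX2 was 11.3 and 10.8 TPM in control and 8.77 and 9.17 TPM in KO+OE. Of 6 genes fixed as fibroblast markers, THY1, which human embryonic stem cells also carry, took most of the sum (1228 to 1352 TPM), COL1A1 averaged 54.5 TPM and COL1A2 13.6 TPM, LUM was listed at 0 throughout, and DCN and COL3A1 reached at most 0.08 TPM. Mitochondrial genes took at most 21.1% of the total in control and 21.6 and 22.1% in KO+OE, and their part in the differences given here was not tested beyond the rescaling without them. The 56 genes together took 2586 and 2609 TPM in control and 2589 and 2603 TPM in KO+OE.

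CFIm25 recognises the letters UGUA shortly before the cleavage and polyadenylation site of a transcript, so the ends of the transcripts were searched for that element (TGTA in DNA letters, sense strand only, in the last 100 bases of the Ensembl canonical transcript of GENCODE release 44). It was found in 37 of the 51 genes averaging 1 TPM or more (72.5%), and in 49.8% of all such genes of the table. The transport genes encode proteins, whereas the genes of the table were not limited to protein-coding ones, and the shares were not matched for this. The transcripts of the 51 genes were poorer in G and C, with a median of 44.4% against 51.8%, and the element itself is mostly A and T. Split by GC content over all 56 genes, the share was 82.4% against 65.4% of all genes under 40% GC, 64.7% against 59.6% from 40 to 45%, 100% against 55.8% from 45 to 50%, 57.1% against 50.8% from 50 to 55%, and 71.4% against 38.6% from 55%. As counted, the share of the transport genes was the higher one in each of these 5 classes, but the sets are unlike. The 56 genes include 5 under 1 TPM, all with the element, while the genes they are set against average 1 TPM or more. From 50 to 55% the transport share is the higher one only with KPNA7, 1 of those 5, counted. GC content was taken over the whole transcript and not over the last 100 bases that were searched. The classes hold only 7 to 17 transport genes, and the difference was not tested. For 5 genes central to transport the match nearest the end is printed here with its flanks, the element in capitals, to show what such a site looks like in this family.
RANBP1: gtcatgaaaaTGTActgtgctaac
KPNB1: atttaagaccTGTAaaacacttga
NUP98: aatatatataTGTAtaaataaatg
KPNA2: tgcagcatccTGTAaataaacatt
RANGAP1: tgcactgaatTGTAcacataaaaa
The matches began 88, 90, 78, 39 and 28 bases before the end of the transcript, in that order. RAN, XPO1 and TPR held none in this window, and in RANBP2 and NXF1 the last match was the final 4 bases. A match is a string of letters and not a measured binding site, and use of poly(A) sites was not measured in this table. The hexamer AATAAA or ATTAAA was found in the last 50 bases of 41 of the 51 genes (80.4%, against 75.3% of all such genes). RAN, XPO1, NXF1 and RANGAP1 lacked it there. Whether the annotated ends are the cleavage sites used in these cells was not tested.

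Levels were spread over 3 orders of magnitude and were led by the Ran cycle. RAN was highest, followed by RANBP1 and KPNA2, and TPR, IPO8 and KPNA4 were the lowest of the genes averaging 1 TPM or more. The median of these 51 genes was 13.4 TPM, against 7.77 TPM for the 12319 genes of the table that passed the same limit. The other 5, RANBP2, XPO4, KPNA5, NUP62CL and KPNA7, averaged less than 1 TPM and were left untested. Within each functional group the order of levels was stable. Of 45 neighbouring pairs in that order, 39 did not overlap over the 4 libraries. The 6 that overlapped were SEH1L and NUP107, NUP107 and NUP160, NUP54 and NUP58, NUP153 and TPR, TNPO1 and IPO7, and NXF1 and NXT1.

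**Figure D1:**
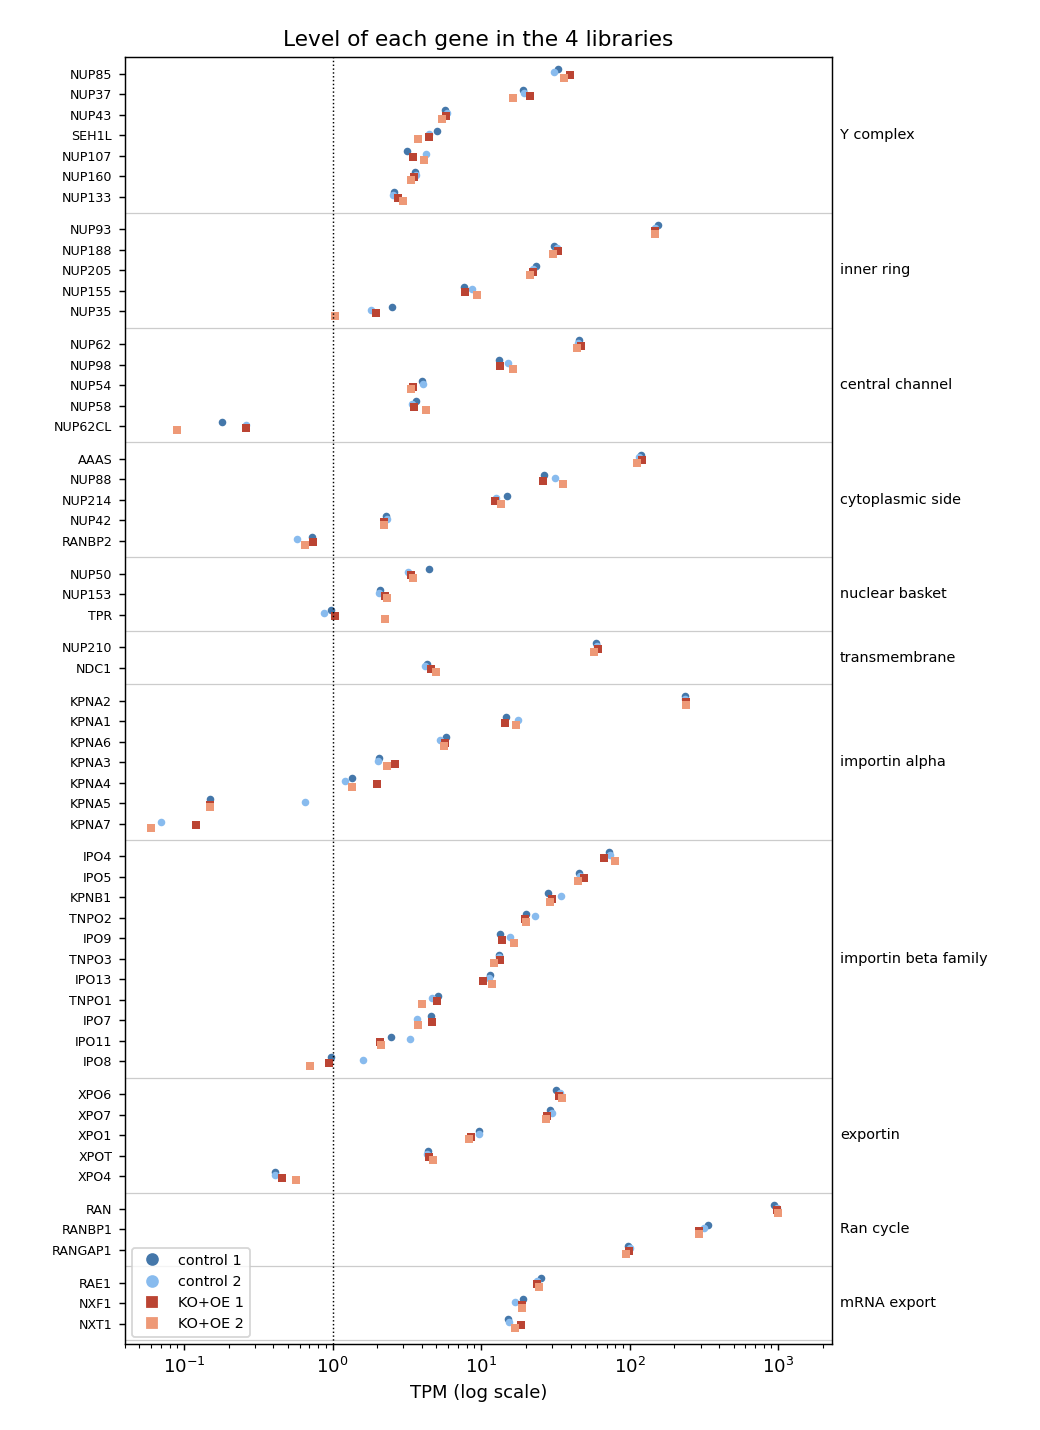
Level of each of the 56 genes in TPM (log axis) in the 2 control libraries (blue circles) and the 2 KO+OE libraries (red squares), grouped by role, with a dotted line at 1 TPM. The 4 points of most genes lie close together while genes of 1 group lie far apart, and the value of 0 listed for KPNA7 in control replicate 1 is not drawn.

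The Y complex, the repeated scaffold unit on both faces of the pore, holds its subunits in about equal number. Their RNA was unequal. The 7 genes counted under this role need not be all of its subunits that the name pattern took in. Of these 7, NUP85 (34.9 TPM over the 4 libraries) and NUP37 (19.1 TPM) stood highest. NUP43, SEH1L, NUP107, NUP160 and NUP133 lay below them, and NUP85 was 12.8 times as high as NUP133, the lowest of the 7. SEC13 and AHCTF1, also part of the complex but outside the pattern, averaged 167 and 0.75 TPM, so the range of the whole complex is wider. NUP133, which anchors the stem of the Y, was listed at 2.60 and 2.56 TPM (control) and 2.76 and 2.98 TPM (KO+OE). The 7 genes counted under this role summed to 71.8 ± 0.742 TPM for control and 76.6 ± 6.27 TPM for KO+OE (mean ± SD, n = 2 each). The larger SD of KO+OE came with NUP37 at 21.26 and 16.50 TPM and NUP85 at 39.71 and 36.03 TPM.

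The inner ring was led by NUP93, the linker that ties its large subunits together, at 156 and 149 TPM in control and 148 TPM in both KO+OE libraries. It made up 69.5 to 70.7% of the summed level of the 5 inner ring genes. The lowest, NUP35, which bridges the ring to the membrane, was listed at 2.50 and 1.81 TPM (control) and 1.97 and 1.04 TPM (KO+OE). The groups overlapped, and KO+OE replicate 2 was the low library. NUP35 had the most negative log2 fold change of the 51 genes, -0.35 with a 95% confidence interval of -0.99 to 0.29, and leaving out that library gave -0.08, while leaving out the other KO+OE library gave -0.62.

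Of the FG nucleoporins of the channel, NUP62, the core of the central plug, was highest, at 45.7 and 45.1 TPM in control and 46.7 and 44.5 TPM in KO+OE. Its partners NUP54 and NUP58, which form a trimer with it, were both near 3.7 TPM on average. NUP54 was lower in both KO+OE libraries (3.48 and 3.35 TPM) than in both control libraries (3.98 and 4.08 TPM). The log2 fold change was -0.19 with an interval of -0.50 to 0.12. NUP58, the lowest tested one of the group, was 3.62 and 3.41 TPM in control and 3.54 and 4.27 TPM in KO+OE. NUP98, which also moves off the pore into the nucleus, was 13.1 and 15.3 TPM in control and 13.4 and 16.3 TPM in KO+OE, so each group held 1 lower and 1 higher library.

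On the cytoplasmic side, AAAS, which encodes ALADIN, was highest at 119 and 116 TPM in control and 120.3 and 113 TPM in KO+OE. It made up 68.5 to 74.3% of the sum of the 5 cytoplasmic genes. NUP42, a docking site for the mRNA export factor GLE1, was the lowest of the tested ones, at 2.30 and 2.34 TPM in control and 2.23 and 2.21 TPM in KO+OE. RANBP2, the giant SUMO ligase of the cytoplasmic filaments, was listed at only 0.73 and 0.58 TPM (control) and 0.74 and 0.65 TPM (KO+OE). It has near-identical relatives, the RGPD genes, and the 7 of them in the table summed to 1.66 TPM on average. Reads may be split between them, so the level of RANBP2 is uncertain.

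The nuclear basket was the group with the lowest levels, with a sum of 6.83 ± 0.997 TPM for control and 7.36 ± 0.983 TPM for KO+OE (mean ± SD, n = 2 each). NUP50, which helps to release importin alpha from its cargo, led it at 4.45 and 3.21 TPM in control and 3.36 and 3.49 TPM in KO+OE. TPR, the filament protein that forms the basket, was listed at 0.98 and 0.87 TPM (control) and 1.04 and 2.24 TPM (KO+OE). The high value of 1 library, KO+OE replicate 2, set the difference. The log2 fold change of 0.42 was the most positive of the 51 genes. Its interval ran from -0.28 to 1.12, and it was 0.08 without that library and 0.75 without KO+OE replicate 1. Of the transmembrane nucleoporins, NUP210 was 59.5 and 60.0 TPM in control and 60.9 and 57.4 TPM in KO+OE, and NDC1, which seats the scaffold in the membrane, was 4.35 and 4.21 TPM in control and 4.60 and 4.99 TPM in KO+OE.

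Among the importin alpha subtypes, the adaptors that read classical nuclear localisation signals, KPNA2 prevailed. It was listed at 237 and 234 TPM (control) and 239.6 and 240.1 TPM (KO+OE), and it made up 89.7 to 90.8% of the summed level of the 7 subtypes in each library. The next subtype, KPNA1, lay at 14.5 to 17.6 TPM, so that KPNA2 exceeded it by 14.9 times on average. The order then ran through KPNA6, KPNA3 and KPNA4 to KPNA5 and KPNA7, and no neighbouring pair overlapped. KPNA3 was 2.05 and 2.02 TPM in control and 2.64 and 2.33 TPM in KO+OE, with a log2 fold change of 0.20 (interval -0.18 to 0.58). KPNA4 was 1.36 and 1.22 TPM in control and 1.98 and 1.36 TPM in KO+OE. The log2 fold change of KPNA4, 0.21, was 0.04 when KO+OE replicate 1 was left out and 0.38 when the other KO+OE library was. KPNA5 and KPNA7 were listed at 0 to 0.65 TPM.

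The importin beta family was more even. IPO4, an importer of histones and ribosomal proteins, was highest at 72.8 and 73.8 TPM in control and 67.0 and 80.0 TPM in KO+OE, and KO+OE thus spanned the control values. KPNB1, the importin beta that pairs with importin alpha, was 28.2 and 34.6 TPM in control and 30.0 and 29.0 TPM in KO+OE. TNPO3, the importer of SR splicing factors and of CPSF6, a partner of CFIm25 in cleavage factor I, was 13.2 TPM in both control libraries and 13.4 and 12.2 TPM in KO+OE. IPO8 and IPO11 stood at the low end. IPO8, the lowest, was 0.98 and 1.61 TPM in control and 0.94 and 0.71 TPM in KO+OE. IPO11, an importer of ubiquitin-conjugating enzymes, was 2.46 and 3.31 TPM in control and 2.10 and 2.13 TPM in KO+OE. Both had the KO+OE libraries below the control libraries, and for both control replicate 2 was the high one. The log2 fold changes were -0.32 (interval -0.90 to 0.26) for IPO8 and -0.31 (interval -0.75 to 0.13) for IPO11. Without control replicate 2 they were -0.12 and -0.15, and without control replicate 1 they were -0.52 and -0.47.

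Of the exportins taken in by the name pattern, XPO6, which exports actin, was highest. It was 32.1 and 34.0 TPM in control and 33.4 and 35.3 TPM in KO+OE. XPOT, the exporter of tRNA, was the lowest tested one of these exportins. It was 4.40 and 4.33 TPM in control and 4.48 and 4.78 TPM in KO+OE. XPO1, the receptor for leucine-rich export signals and for many proteins and RNAs, was 9.67 and 9.64 TPM in control and 8.60 and 8.32 TPM in KO+OE. The groups of XPO1 did not overlap and its replicates lay close, yet the log2 fold change of -0.17 (interval -0.39 to 0.05) did not pass the test, with an adjusted p = 0.931 from limma.

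The Ran cycle showed the highest levels and the narrowest intervals. RAN itself was 942 and 980.5 TPM in control and 985 and 1002 TPM in KO+OE, which is a log2 fold change of 0.05 (interval -0.03 to 0.13). RANGAP1, which makes Ran hydrolyse its GTP in the cytoplasm, was 97.6 and 100.1 TPM in control and 98.9 and 94.0 TPM in KO+OE. RANBP1, which frees Ran-GTP from transport receptors so that RANGAP1 can act, was 338 and 315 TPM in control and 294 and 293 TPM in KO+OE. Both KO+OE values of RANBP1 were below both control values. The summed level of the 3 genes was 1387 ± 13.1 TPM for control and 1383 ± 7.76 TPM for KO+OE (mean ± SD, n = 2 each).

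For mRNA export, RAE1, an mRNA export factor bound to NUP98, was 25.2 and 23.7 TPM in control and 23.7 and 24.6 TPM in KO+OE. NXF1 was 19.2 and 16.8 TPM in control and 18.8 TPM in both KO+OE libraries. NXT1, its small partner, was 15.2 and 15.4 TPM in control and 18.6 and 16.9 TPM in KO+OE, so the groups did not overlap. The log2 fold change of NXT1 was 0.20 with an interval of 0.00 to 0.40 whose lower end lay just under 0.

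The groups were then compared over all genes with limma on log2(TPM + 1), a scale that understates the change of low genes. None of the 51 tested genes passed an adjusted p of 0.05, and the lowest adjusted p was 0.928. In all, a single gene of the table passed, or 0.00812% of those tested. At an unadjusted p of 0.05 from limma, 2 of the 51 passed (3.92%), against 5.33% of all genes tested. They were NUP85, higher in KO+OE, where 2.26% of all genes passed in that direction, and RANBP1, lower in KO+OE, where 3.06% did. The share of the transport genes was thus no larger than that of the table. The log2 fold changes ran from -0.35 for NUP35 to 0.42 for TPR, with 23 above 0 and 28 below, which is 45.1% above 0 against 45.5% of all genes. The median was -0.01 for the 51 genes and -0.01 for all genes.

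NUP85 (chr17:75205679-75235758 in RefSeq on GRCh38.p14) was 33.0 and 31.1 TPM in control and 39.7 and 36.0 TPM in KO+OE. The means were 32.0 ± 1.38 and 37.9 ± 2.60 TPM (SD, n = 2 each) and the log2 fold change was 0.23 with an interval of 0.05 to 0.42. The adjusted p from limma was 0.928. RANBP1 (chr22:20116104-20127355 in the same annotation) had means of 327 ± 15.8 TPM for control and 294 ± 1.06 TPM for KO+OE (mean ± SD, n = 2 each). Its log2 fold change was -0.15 with an interval of -0.26 to -0.04, and its adjusted p from limma was also 0.928. The unadjusted p of each crossed 0.05 when 1 library was left out, for NUP85 without control replicate 2 or KO+OE replicate 1 and for RANBP1 without control replicate 1 or either KO+OE library. With a prior that does not depend on the mean, neither NUP85 nor RANBP1 passed, and NUP54 was the 1 transport gene that did.

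**Figure D2:**
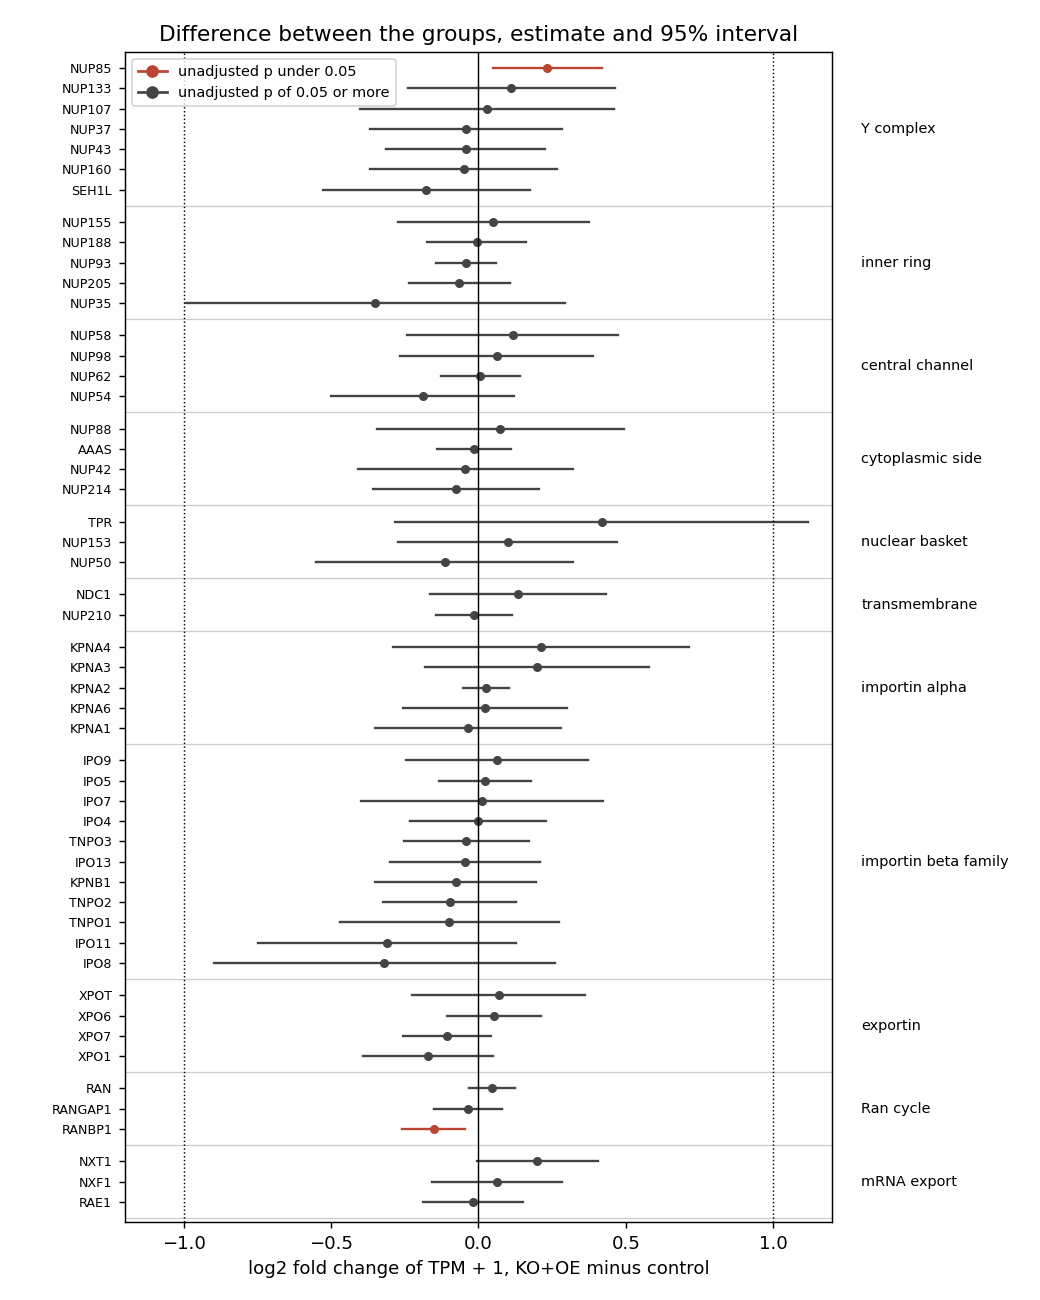
Log2 fold change of TPM + 1, KO+OE minus control, with its 95% confidence interval from limma for the 51 tested genes, grouped by role, with dotted lines at a 2-fold difference either way. All intervals but those of NUP85 and RANBP1 (red, unadjusted p under 0.05) cover 0, and only that of TPR reaches past a dotted line.

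In 20 of the 51 genes (39.2%) the groups did not overlap, against 34.1% of all genes tested. In 10 of them both KO+OE libraries lay above control (19.6%, against 14.5% of all genes) and in 10 below (19.6%, against 19.6% of all genes). The first 10 were NUP85, NUP133, NUP153, TPR, NDC1, KPNA2, KPNA3, XPOT, RAN and NXT1. The other 10 were SEH1L, NUP160, NUP93, NUP54, NUP42, IPO11, IPO8, XPO7, XPO1 and RANBP1. Both lists mixed scaffold subunits, receptors and members of the Ran cycle. SEH1L, a subunit shared with a nutrient-sensing complex at the lysosome and among the 5 most negative fold changes, was 5.03 and 4.49 TPM in control and 4.47 and 3.74 TPM in KO+OE, with a log2 fold change of -0.18 (interval -0.53 to 0.18). Leaving out KO+OE replicate 2 gave -0.07, and leaving out the other KO+OE library gave -0.28.

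On the scale log2(TPM + 1), the 95% interval lay wholly within 2-fold either way for 50 of the 51 genes (98.0%), against 92.6% of all genes. TPR was the exception. This count depends on the pseudocount for low genes. With 0.1 in place of 1 it was 47 of 51 (92.2%, against 81.2% of all genes), with TPR, NUP35, IPO8 and KPNA4 outside. With 5 it was 51 of 51 (100%, against 98.2% of all genes). The log2 fold change went to -0.57 for IPO8, -0.54 for NUP35 and 0.67 for TPR with 0.1, and to -0.11, -0.14 and 0.16 with 5. With the pseudocount of 1, the median distance from the estimate to the end of the interval was 0.37 on the log2 scale for the 19 genes from 1 to 5 TPM, 0.22 for the 24 genes from 5 to 50 TPM and 0.11 for the 8 genes above. In 28 of the 51 genes (54.9%) the highest of the 4 libraries was less than 1.2 times the lowest, against 45.9% of all genes. Small differences in low genes such as NUP153, KPNA4 or IPO8 were therefore not detectable here.

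**Figure D3:**
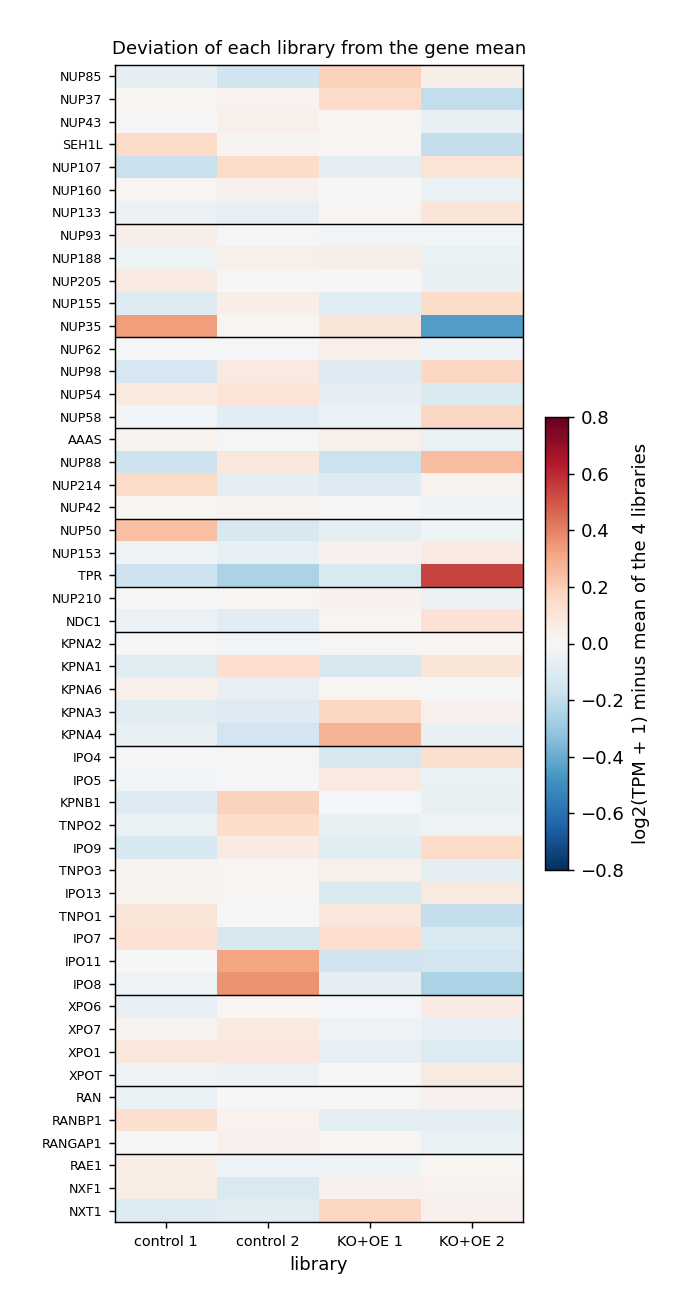
Deviation of each library from the mean of the 4, on the scale log2(TPM + 1), for the 51 tested genes in the order of the groups above, with red above and blue below the mean. Among the strongest colours are those of low genes, TPR and NUP35 in KO+OE replicate 2, IPO8 and IPO11 in control replicate 2 and NUP35 in control replicate 1.

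A further 40 transport genes outside the naming rule were listed from the pathway, of which 38 were found by symbol and 31 averaged 1 TPM or more. None passed an adjusted p of 0.05, and 2 passed an unadjusted p of 0.05 from limma (6.45%, against 5.33% of all genes). CSE1L, which returns importin alpha to the cytoplasm, was low at 3.48 and 3.86 TPM in control and 4.13 and 3.38 TPM in KO+OE. RCC1, which loads Ran with GTP on chromatin, was 51.4 and 52.7 TPM in control and 50.9 and 47.0 TPM in KO+OE. NUTF2, the importer of Ran-GDP, was 147 and 160.0 TPM in control and 167 TPM in both KO+OE libraries, for a log2 fold change of 0.13 (interval -0.01 to 0.26). Both genes with an unadjusted p under 0.05 had higher values in KO+OE, a direction in which 2.26% of all genes passed. Of the 31 tested genes, 14 had a fold change above 0 (45.2%, against 45.5% of all genes). THOC1, a subunit of the THO complex, was 1.29 and 1.02 TPM in control and 2.07 TPM in both KO+OE libraries, with a log2 fold change of 0.51 (interval 0.08 to 0.95) and an adjusted p = 0.928 from limma. DDX19B, the helicase that strips export factors at the cytoplasmic face, was 49.2 and 44.5 TPM in control and 54.1 and 55.2 TPM in KO+OE, with a log2 fold change of 0.22 (interval 0.05 to 0.38) and the same adjusted p. Its close paralogue DDX19A was 18.6 and 19.7 TPM in control and 22.3 and 19.0 TPM in KO+OE, and reads may be split between them. Without either KO+OE library no gene of this list passed an unadjusted p of 0.05.

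Levels within the family went with the base composition of the transcript in every library. Across the 51 tested genes, which are not independent replicates, the Spearman correlation of TPM with GC content of the canonical transcript was 0.605 to 0.626 in the 4 libraries, and 0.264 to 0.277 across all genes tested. The correlation with transcript length was -0.24 to -0.20 across the 51 genes. The 17 of the 56 genes with a GC content under 40% had a median of 2.50 TPM and reached at most 19.1 TPM, and they included TPR, RANBP2, XPO1, KPNA3, KPNA4 and NUP107. The 7 genes at 55% or more, NUP62, AAAS, NUP210, IPO4, TNPO2, IPO13 and RANGAP1, had a median of 59.5 TPM and a lowest of 11.2 TPM. RAN and KPNA2 were exceptions, with 40.2% and 44.8% GC and the first and the third highest level. The libraries share protocol and processing, and the part of base composition in these levels was not tested. The order of levels in the family is therefore given as the table lists it.

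**Figure D4:**
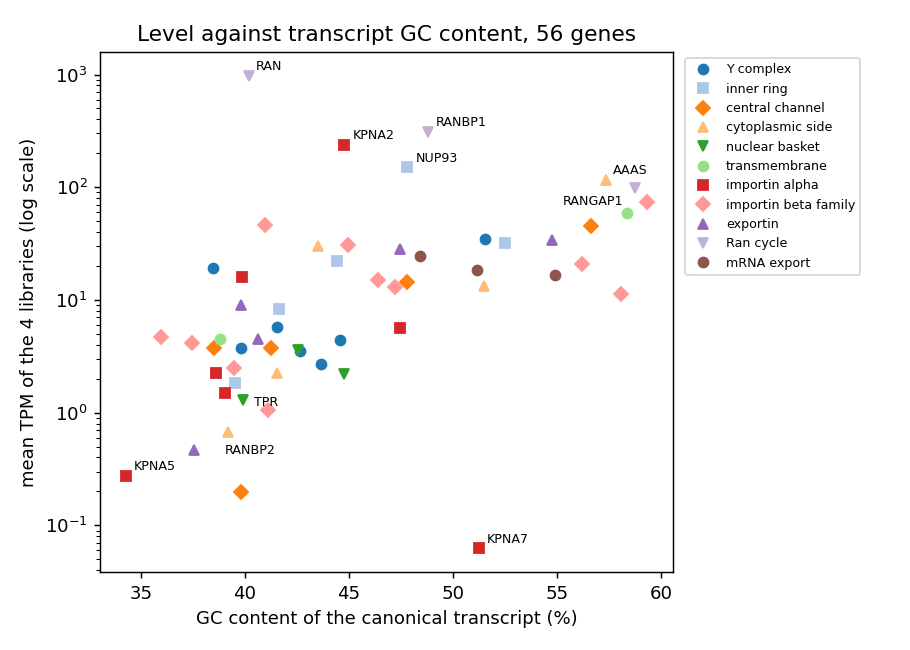
Mean TPM over the 4 libraries (log axis) against the GC content in percent of the canonical transcript for the 56 genes, with a colour and symbol for each role and labels on 10 genes. Genes under 40% GC lie below 20 TPM and genes from 55% above 10 TPM, with RAN and KPNA2 high at a low GC content and KPNA7 low at a high one.

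Apart from the RGPD relatives of RANBP2, pseudogenes named after transport genes had low values. The 9 pseudogenes named after RAN summed to 0.52 TPM on average and the 3 named after KPNA2 to 0.10 TPM, in each case less than 0.1% of the parent gene. The 1 pseudogene named after IPO5 was listed at 2.68 to 4.76 TPM, 8.21% of IPO5 on average, while IPO5 itself was 45.8 and 46.6 TPM in control and 49.0 and 44.9 TPM in KO+OE. Reads may be shared between IPO5 and this copy, so the level of IPO5 is uncertain. How many reads the parent genes and their pseudogenes share was not tested, and the listed values do not show it.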

How the data were processed

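Libraries were grouped by sample title, and the columns of the table were matched to the titles by group letter and replicate number. Per the labels, poly(A+) RNA was sequenced as paired reads, and the submitters' processing notes name hg38, HISAT2, featureCounts, Subread and DESeq2 without roles. The authors deposited 1 value per gene and library without a unit. The values were read as TPM because the deposited columns hold decimals and sum to nearly the same total, 986853 to 987078. These properties do not show that the values were corrected for transcript length. Depth is unknown, and a count test could not be used. The table had 0 other per-sample columns.

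The 12319 genes averaging 1 TPM or more were fitted together on log2(TPM + 1) with limma 3.58.1 under R 4.3.3, using lmFit and eBayes with trend (a prior that depends on the mean). Group was the only term, the test was two-sided, and Benjamini-Hochberg adjustment ran over all of these genes. Intervals are at 95%. The step was tested on simulated data. Members were found by a fixed name pattern that leaves XPO5 out. The members, the role groups and the further pathway list were chosen with earlier results of these data known. Values in every library are given for 10 central genes, the highest and lowest tested gene of each role, the 5 largest changes either way and genes with an unadjusted p under 0.05. Those of TNPO3, IPO5 and DDX19A were added outside this rule. Positions came from RefSeq on GRCh38.p14 and transcripts from GENCODE release 44 (the copy placed on GRCh37, used by Ensembl identifier without coordinates). All 56 genes matched both. The fit was repeated with a pseudocount of 0.1 or 5, with the filter dropped or raised to 5 TPM, after median-ratio or quantile scaling, after rescaling without mitochondrial genes, with a constant prior, with replicate as a block, and without each library in turn. The count of intervals within 2-fold under other pseudocounts was added after seeing the data. Other steps used pandas 2.3.3 and scipy 1.17.1 under Python 3.11.15.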

Additional observations from a re-analysis of the deposited data

How the results depend on the processing

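No transport gene passed an adjusted p of 0.05 with limma under any of the 13 alternatives, while 1 to 4 passed an unadjusted p of 0.05. The latter count was 4 of 51 with quantile normalization (NUP85, RANBP1, RAN and NXT1), where 649 of all 12319 genes tested passed. Without the mean-dependent prior the count was 1 of 51 (NUP54, with NUP85 and RANBP1 lost), where 688 of the 12319 passed. It was 1 to 2 when 1 library was left out (NUP85 and KPNB1 without control replicate 1, RANBP1 without control replicate 2, TPR without KO+OE replicate 1, NUP85 and NXT1 without KO+OE replicate 2), where the lone library of a group is assumed to vary like the others. The median log2 fold change of the transport genes moved to -0.0012 with median-ratio rescaling, 0.0062 with quantile normalization and 0.00038 after rescaling without mitochondrial genes, and ran from -0.028 to -0.0052 when 1 library was left out. For the further pathway genes the count at an unadjusted p of 0.05 was 1 without the mean-dependent prior and 0 to 2 when 1 library was left out.

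Over all genes, 0 passed an adjusted p with pseudocounts of 0.1 and 5, no filter, the filter at 5 TPM, quantile normalization and the replicate block, where 670, 634, 1314, 412, 649 and 673 passed an unadjusted p; with 1 library left out the counts were 0 to 1 and 554 to 634. Replicate numbers did not pair the libraries (correlation of deviations -0.049). With the replicate block, 4 of the 31 further pathway genes passed an unadjusted p of 0.05 from limma and 2 of the 51 transport genes did. Of all 12319 genes tested, 673 did.

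The log2 fold change of IPO4 turned to 0.011 with median-ratio rescaling, 0.022 with quantile normalization and 0.013 without mitochondrial genes, that of NUP210 to 0.0062 with quantile normalization and that of AAAS to 0.00038 without mitochondrial genes. Leaving out 1 library turned the sign for AAAS (-0.061 to 0.034), CSE1L (-0.091 to 0.14), IPO4 (-0.13 to 0.13), KPNB1 (-0.22 to 0.065), NUDT21 (-0.012 to 0.066), NUP210 (-0.056 to 0.026), NUP50 (-0.30 to 0.072), NUP62 (-0.028 to 0.042), NUP98 (-0.071 to 0.20), NXF1 (-0.028 to 0.15), RAE1 (-0.060 to 0.025) and RANGAP1 (-0.072 to 0.00084). The causes were not tested. TPM holds no counts, so depth sets no stated limit here.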
